A study of Rattus norvegicus with 6 samples.

Results

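The genes of cilia and centrosomes were followed in the lateral ventricular choroid plexus of the rat, the folded tissue inside the brain ventricles that secretes cerebrospinal fluid, at embryonic day 15 (E15) and in the adult. Their members were chosen by name, with a pattern of gene symbols applied to the authors' table of genes they had called different between the 2 ages, and 65 such genes were found among 10093 named genes and 29479 gene identifiers counted. The names were therefore selected on the same contrast in the same pools, and the age differences of the members are given as a description, without p-values. The Sprague-Dawley rats were untreated, either E15 embryos or non-pregnant adults of 6 weeks, and each RNA sample pooled plexuses of both sides from 10 animals, with 3 pools (1 library each) at each age. The plexus was taken whole, so that vessels, stroma and blood were sequenced with the epithelium, and in such bulk samples fewer cells of a type and less RNA per cell cannot be told apart.

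A cilium is a rod of microtubules, the axoneme, that grows from a basal body, and a basal body is a centriole that in dividing cells sits instead in the centrosome and organises the spindle poles with gamma-tubulin. Motile cilia beat through dynein arms, steered by radial spokes and a central pair, whereas intraflagellar transport and the BBSome carry proteins along the cilium and the transition zone gates its base. Epithelial cells of the choroid plexus carry tufts of cilia, for which a cell has to make many centrioles at once.

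Libraries held 17875089 to 19204440 counts. Values are normalized counts, that is raw counts scaled with the TMM factors of edgeR to a common depth of 19267507. A positive log2 fold change means that a gene was higher at E15. The choice of scaling bears on every direction below. The 10 most abundant genes made up 24.2% to 27.3% of an adult library and 4.86% to 5.90% of an E15 library, and over the 16643 genes tested the log2 fold change had a median of 0.14 with TMM and 0.94 with scaling by total counts. Directions under the latter are therefore given for the genes named below wherever they differ. E15 replicate 1 stood apart from the other E15 pools, with a Spearman correlation of 0.979 and 0.982 to them across genes, compared with 0.996 between those pools. All 9 markers of choroid plexus epithelium that could be named, from *Ttr* to *Cldn2*, were counted in every pool at both ages. All 9 were called in the adult under both scalings, between 2.76-fold (*Aqp1*) and 45.1-fold (*Kl*), with a median log2 fold change of -3.16. Markers of some other cells of the tissue went the opposite way under both scalings. All 7 of endothelium, all 6 of erythroid cells and 6 of 8 of mesenchyme were called at E15. *Dcn* and *Pdgfra* of the mesenchyme list were called in the adult under both scalings. Of 11 markers of developing neurons, 10 were called at E15 and 1 (*Reln*) in the adult under both scalings. Of 3 macrophage markers 1 was called at E15 and 1 in the adult with TMM. Markers of every list could be named only where the authors had called them on these pools, so their calls are no independent evidence. The shares called over all genes tested were 34.7% at E15 and 29.3% in the adult with TMM, and 58.9% and 13.8% with total counts. Summed over each list, endothelium had 7618 to 10262 normalized counts per E15 library but 753 to 1200 per adult library, erythroid cells 6791 to 8913 but 133 to 277, and mesenchyme 42551 to 56348 but 15945 to 16568. The part of such shifts in the members' age differences was not tested.

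Of the 65 members, 64 had more than 10 counts in all and were tested. In the quasi-likelihood test of edgeR, adjusted over all genes by Benjamini-Hochberg, 32 members were called enriched at E15, where 34.7% of all genes tested were called, and 31 in the adult, where 29.3% were called. *Ttc9b* was not called, with 18.8, 6.93 and 13.3 normalized counts at E15, against 0, 9.09 and 5.49 in adult plexus. Normalized counts of the 3 E15 pools lay above those of the 3 adult pools for 32 members and below them for 31, and overlapped for *Nphp4* and *Ttc9b*. Among all genes tested 70.1% did not overlap. With scaling by total counts 34 members were called at E15 and 10 in the adult, where 58.9% and 13.8% of all genes tested were called, and 13 members that had been higher in the adult turned to the E15 side. The members least different between the ages were *Cep63* (1.43-fold), *Dnah5* (1.45-fold) and *Dnal1* (1.45-fold), all higher in the adult with TMM and turned by total counts. Genes outside the authors' table have no name here, so that no value just outside the rule can be given.

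**Figure D1:**
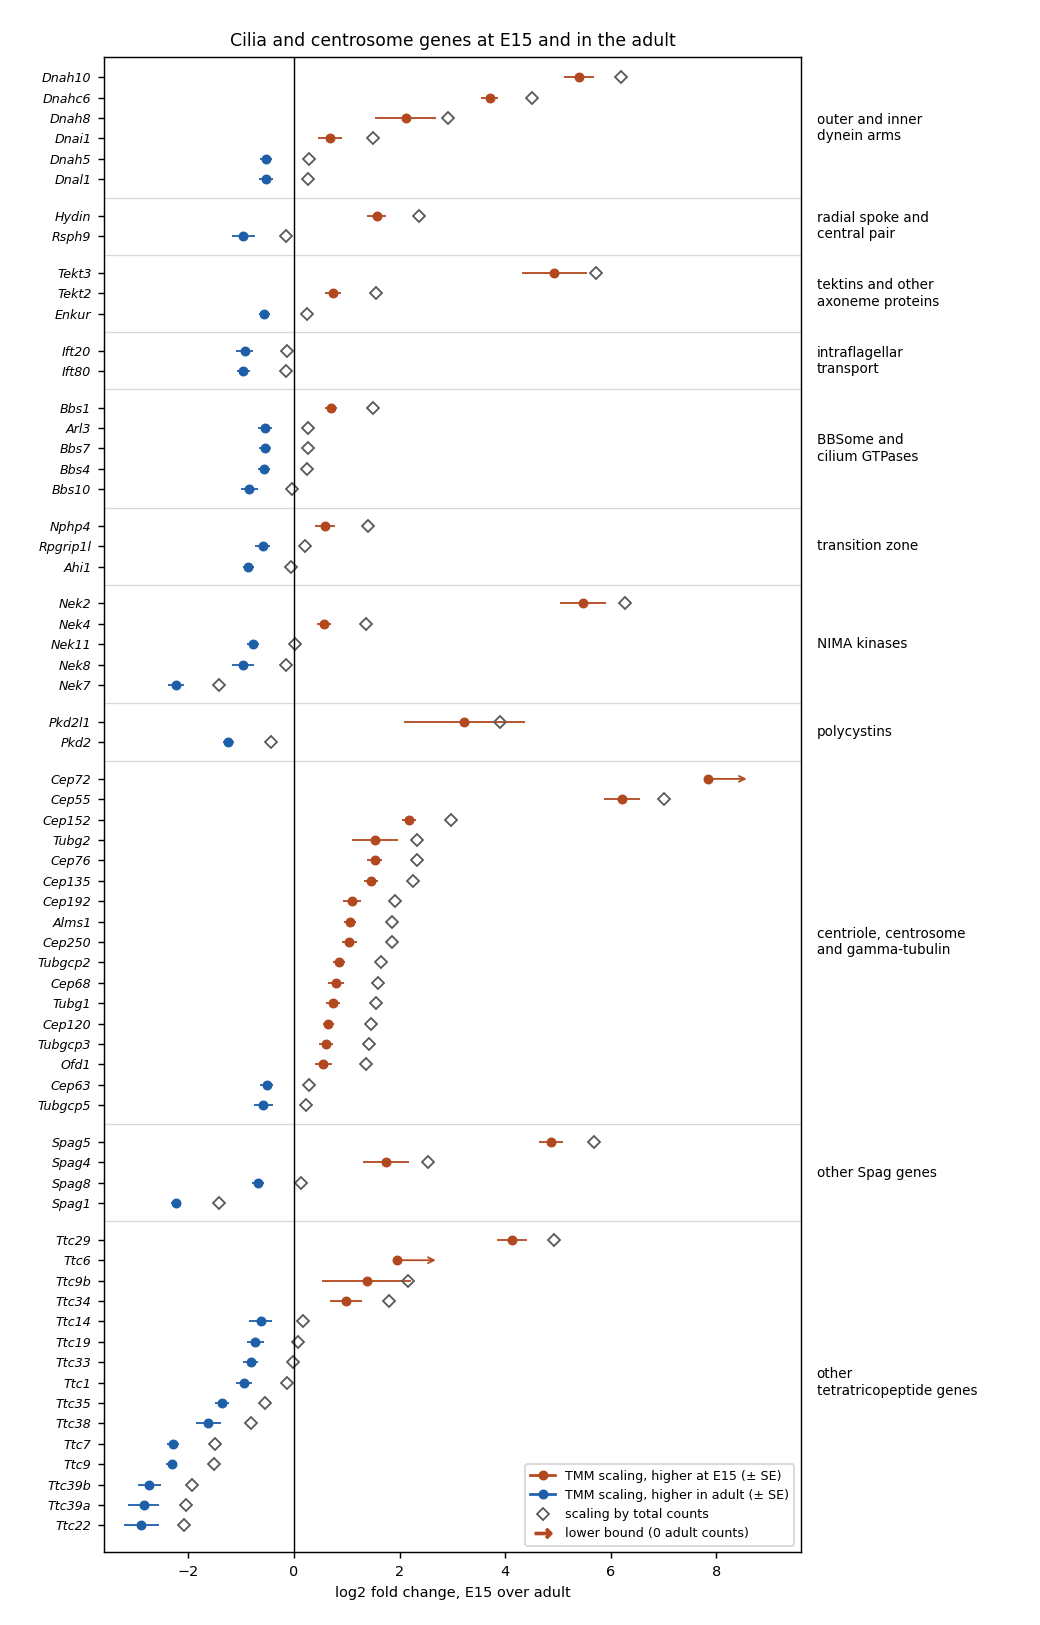
Log2 fold change (E15 over adult) of the 64 members tested, grouped by role, with TMM scaling (filled circles, bars show the standard error, n = 3 pools at each age) and with scaling by total counts (open diamonds); *Cep72* and *Ttc6*, with 0 adult counts, stand at their lower bound with an arrow and no diamond. Centrosome genes lie mostly to the right and the largest adult differences are those of tetratricopeptide genes, while 13 members cross the zero line between the scalings.

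Dynein arms, spokes and tektins divided by age. Of 11 members that build the axoneme, 7 were called at E15 under both scalings, and 4 (*Dnah5*, *Dnal1*, *Rsph9* and *Enkur*) were called in the adult with TMM but not with total counts. Among all genes tested 34.7% were called at E15 and 29.3% in the adult with TMM, and 58.9% and 13.8% with total counts.

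The dynein heavy chains of the inner arms had the widest difference among the arm genes. *Dnah10* (ENSRNOG00000001002) had 981, 1649 and 1431 normalized counts at E15, against 19.8, 40.3 and 35.7 in adult plexus. The ages were far apart in every pool, although E15 replicate 1 was the lowest of its age, and the enrichment at E15 was 42.0-fold (log2 fold change 5.39, standard error 0.29). *Dnahc6* (ENSRNOG00000015581), the gene now named *Dnah6*, had 1522, 1774 and 1534 at E15, against 97.7, 139 and 132 in adult plexus, an enrichment of 13.1-fold with E15 pools that lay close together.

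The members of the outer arms were divided, with *Dnah5* and *Dnal1* higher in the adult with TMM but at E15 with total counts, and *Dnai1* and *Dnah8* called at E15 under both. *Dnah5* (ENSRNOG00000012624), their heavy chain best known from primary ciliary dyskinesia, had 1293, 1619 and 1521 normalized counts at E15, against 2227, 2228 and 1950.4 in adult plexus. These pools did not overlap, and the difference of 1.45-fold in favour of the adult became 1.21-fold in favour of E15 with total counts. *Dnal1*, a light chain of the same arms, moved likewise, from 1.45-fold in the adult to 1.20-fold at E15. *Dnai1*, an intermediate chain of the outer arms, had 360.1, 480.5 and 481 at E15, against 345, 289.6 and 187 in adult plexus. Its highest adult pool came close to its lowest E15 pool, and the call at E15 was lost in 4 of the 6 fits that left out a library. *Dnah8* was low at both ages (47.4 ± 2.05 and 10.8 ± 8.58 normalized counts, mean and SD, n = 3), and was enriched 4.34-fold at E15. Its log2 fold change of 2.12 became 2.70 without adult replicate 2 and 1.58 without adult replicate 3.

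*Hydin* (ENSRNOG00000023554), which codes for a protein of the central pair whose loss causes hydrocephalus in mice, had 1172, 1512 and 1264 normalized counts at E15, against 354, 416 and 562 in adult plexus. All E15 pools were above all adult pools, by 2.97-fold on average (log2 fold change 1.57, standard error 0.18). *Rsph9* (ENSRNOG00000019474), a protein of the radial spoke head, had 931, 1706 and 1735 at E15, against 2944, 2748 and 2809 in adult plexus. All adult pools were above all E15 pools, and E15 replicate 1 was low, at a log2 ratio of -0.89 to the other E15 pools. The adult enrichment of 1.94-fold was not called with total counts (log2 fold change -0.15).

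Tektins form filaments inside the doublet microtubules. *Tekt3* (ENSRNOG00000027212) had 101, 93.2 and 106 normalized counts at E15, against 0, 7.79 and 1.37 in adult plexus, where 7 reads were counted in all. It was enriched 30.5-fold at E15, or with a log2 fold change of 6.91 in place of 4.93 once adult replicate 2, with 6 of these reads, was left out. *Tekt2* was enriched 1.67-fold with TMM and 2.91-fold with total counts, from 1668 ± 168 normalized counts at E15 against 1000.2 ± 162 in adult plexus (SD, n = 3). *Enkur*, whose protein lies inside the doublets and binds calmodulin, had 4796, 3896 and 4271 at E15, against 6486, 6259 and 6386 in adult plexus, 1.48-fold higher in the adult with TMM and 1.18-fold higher at E15 with total counts.

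**Figure D2:**
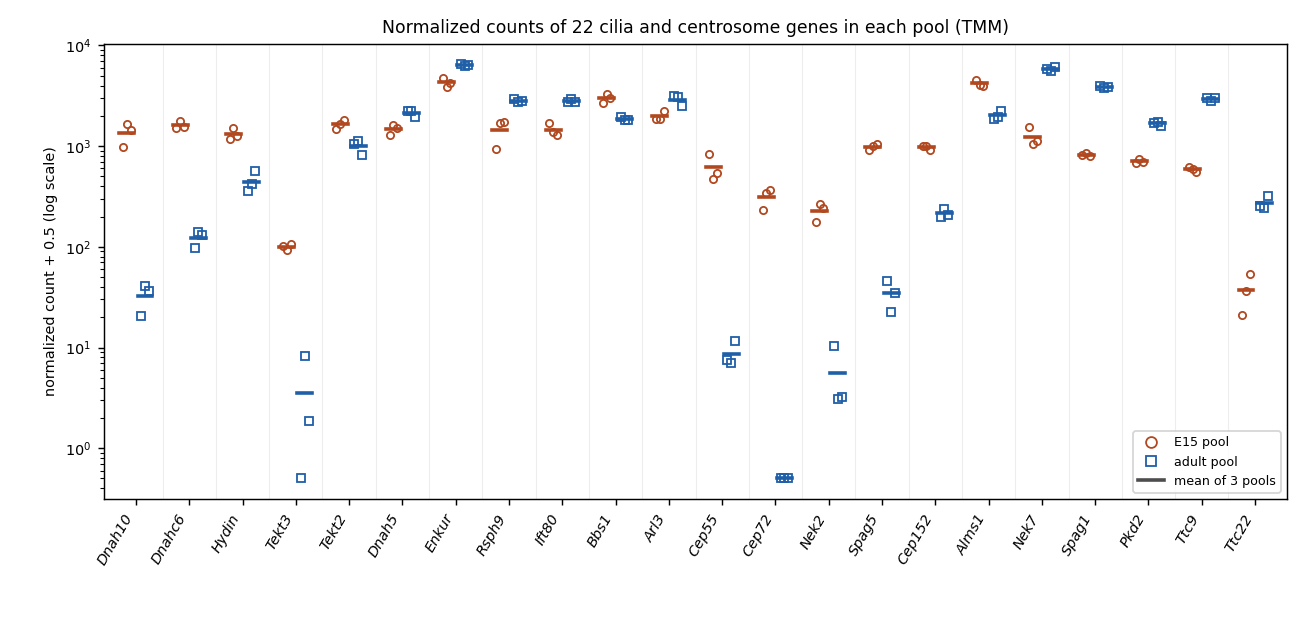
Normalized counts plus 0.5 (TMM, log axis) of 22 members in the 3 E15 pools (circles) and the 3 adult pools (squares), with the mean of each age as a bar. *Dnah10*, *Dnahc6*, *Tekt3*, *Cep55*, *Cep72*, *Nek2* and *Spag5* were separated by more than 10-fold, whereas *Dnah5*, *Enkur* and *Arl3* differed by less than 2-fold and changed sides under total counts.

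Genes that carry cargo into the cilium or gate its base were mostly higher in the adult with TMM, and none of them was called there with total counts. Of 10 such members, 2 were called at E15 and 8 in the adult with TMM, against 2 and 0 with total counts. Over all genes tested the shares were 34.7% and 29.3% with TMM, and 58.9% and 13.8% with total counts.

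*Ift80* (ENSRNOG00000009808) and *Ift20* (ENSRNOG00000008891) belong to the complex that moves cargo towards the ciliary tip, and *Ift20* also works at the Golgi apparatus. *Ift80* had 1681, 1366 and 1293 normalized counts at E15, against 2748, 2949 and 2757 in adult plexus, and *Ift20* had 1118, 745 and 770.1 at E15, against 1828, 1599.8 and 1614 in adult plexus. Both were about equally enriched in the adult, 1.95- and 1.92-fold, but with total counts their pools overlapped and the log2 fold changes were -0.16 and -0.13. E15 replicate 1 was the highest E15 pool for both.

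In the BBSome, the coat that sorts membrane proteins of the cilium, *Bbs1* (ENSRNOG00000019832) was the exception, with 2712, 3306 and 3029 normalized counts at E15, against 1945, 1797 and 1838 in adult plexus, an enrichment of 1.62-fold at E15 under TMM and 2.84-fold under total counts. The subunits *Bbs4* and *Bbs7* were 1.48- and 1.46-fold higher in the adult with TMM, and 1.18- and 1.20-fold higher at E15 with total counts. Subunits of this 1 complex thus differed in direction with TMM and only in size with total counts. *Bbs10*, a chaperonin-like protein needed to assemble the BBSome, had 398 ± 79.5 normalized counts at E15 against 714 ± 24.7 in adult plexus (SD, n = 3), with a log2 fold change of -0.85 that was -0.04 with total counts. *Arl3*, the small GTPase that releases lipid-modified cargo inside the cilium, had 1874, 1855 and 2239 at E15, against 3165, 3045 and 2504 in adult plexus, and turned in the same way as *Bbs4* and *Bbs7* (log2 fold change -0.55 with TMM and 0.26 with total counts).

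Of the transition zone members, *Ahi1* (ENSRNOG00000013969), mutated in Joubert syndrome, had 1263, 1233 and 1182 normalized counts at E15, against 2011, 2308 and 2389 in adult plexus. It was 1.82-fold higher in the adult with TMM, without overlap, and overlapped between the ages with total counts (log2 fold change -0.06). *Rpgrip1l* had 2480.2 ± 540.1 at E15 against 3748 ± 48.2 in adult plexus (SD, n = 3), with E15 replicate 1 well above the other E15 pools and a log2 fold change that went from -0.60 to 0.21 with total counts. For *Nphp4* the pools overlapped, with 827, 1369.9 and 1303 at E15, against 854, 764 and 706 in adult plexus. Only E15 replicate 1 lay within the adult range, and the call at E15 was lost in 4 of the 6 fits that left out a library.

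The centrosome genes were mostly higher at E15, where 34.7% of all genes tested were called with TMM and 58.9% with total counts. Members could be named only if the authors had called them, so the counts by role are a description. Of 17 members of centrioles, the centrosome and the gamma-tubulin ring, 15 were called at E15 with TMM and 16 with total counts. The exceptions were *Cep63* and *Tubgcp5*, 1.43- and 1.50-fold higher in the adult with TMM, and 1.22- and 1.17-fold higher at E15 with total counts, where only *Cep63* was called. The adult call of *Tubgcp5* with TMM was lost without E15 replicate 3.

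The 3 widest differences among the centrosome genes belonged to *Cep72*, *Cep55* and *Cep152*. *Cep72* (ENSRNOG00000015465), a protein of centriolar satellites, had 281, 442 and 463 raw counts at E15, against 0, 0 and 0 in adult plexus. Against a floor of 3 counts over the adult pools it was at least 229.6-fold higher at E15, a bound that covers counting error only. *Cep55* (ENSRNOG00000016377), which brings the abscission machinery to the bridge between dividing cells, had 832, 474 and 541 normalized counts at E15, against 7.08, 6.49 and 11.0 in adult plexus, enriched 74.2-fold (log2 fold change 6.21, standard error 0.34). E15 replicate 1 held the most *Cep55*, at a log2 ratio of 0.71 to the other E15 pools, which is small beside the difference between the ages.

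*Cep152* (ENSRNOG00000008260), the scaffold that recruits the kinase Plk4 to the parent centriole, had 1002, 1000.3 and 919 normalized counts at E15, against 197, 239 and 209 in adult plexus, an enrichment of 4.53-fold with little spread at either age. Its binding partner in that step is *Cep63*, which was on the adult side with TMM and on the E15 side with total counts. *Cep135* and *Cep120*, which serve the build-up and the elongation of centrioles, were enriched 2.74- and 1.57-fold at E15, and *Cep192*, which gathers the material around the centriole, 2.15-fold.

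*Alms1* (ENSRNOG00000022343), the basal body gene of Alström syndrome, had 4573, 4046 and 4002 normalized counts at E15, against 1880.4, 1936 and 2248 in adult plexus, an enrichment of 2.08-fold. *Cep250* and *Cep68*, which tie the centrioles of a cell together until division, were enriched 2.07- and 1.73-fold. *Ofd1*, which limits centriole length, had 581 ± 106 and 395 ± 43.9 normalized counts (SD, n = 3), and its call at E15 was lost without adult replicate 1 or adult replicate 2. *Cep76*, which keeps centrioles from duplicating again within a cycle, was enriched 2.88-fold.

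In the gamma-tubulin ring, from which microtubules grow, *Tubg1* had 808 ± 87.4 normalized counts at E15 against 485 ± 35.1 in adult plexus (SD, n = 3), and *Tubgcp2* had 1303 ± 40.3 and 722 ± 42.6. They were enriched 1.67- and 1.80-fold at E15, and *Tubgcp3* 1.53-fold. *Tubg2* was counted at a low level, 28.6, 41.6 and 32.2 at E15, against 14.2, 14.3 and 6.87 in adult plexus, and its call at E15 was lost without E15 replicate 2. *Tubg1* and *Tubg2* are close copies of each other, so reads that match both were discarded in the authors' unique mapping, and their separate levels are uncertain.

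The NIMA kinases were split. *Nek2* (ENSRNOG00000004487), which dissolves the tie between centrosomes at the start of mitosis, had 175, 266 and 242 normalized counts at E15, against 9.91, 2.60 and 2.75 in adult plexus. Its enrichment of 44.4-fold at E15 rested on 11 adult reads, and the log2 fold change went from 5.47 to 6.32 when adult replicate 1, with 7 of them, was left out. *Nek7* (ENSRNOG00000000657), a kinase of spindle assembly that also takes part in the NLRP3 inflammasome, went the opposite way under both scalings, with 1553, 1053 and 1122 at E15, against 5787, 5629 and 6099.8 in adult plexus, 4.70-fold higher in the adult with TMM and 2.69-fold with total counts. *Nek4* was enriched 1.48-fold at E15. *Nek8*, a kinase of the base of the cilium, had 185 ± 45.0 at E15 against 361 ± 31.8 in adult plexus (SD, n = 3), and *Nek11*, a kinase of the DNA damage checkpoint, 551 ± 46.4 and 946 ± 56.6. Both were called in the adult with TMM only, and with total counts *Nek11* stood at a log2 fold change of 0.03 and *Nek8* at -0.16.

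Polycystins are channels and receptors of the ciliary membrane. *Pkd2* (ENSRNOG00000002146), the channel mutated in polycystic kidney disease, had 681, 750.0 and 699 normalized counts at E15, against 1716, 1729.7 and 1602 in adult plexus, 2.37-fold higher in the adult with TMM and 1.36-fold with total counts. *Pkd2l1*, a marker of neurons that contact the cerebrospinal fluid, had 8, 4 and 8 raw counts at E15, against 0, 0 and 1 in adult plexus, with a ratio of 11.6 (exact 95% interval 1.86 to 481). *Pkd1l1* had 2, 5 and 2 raw counts at E15 and 0 in the adult, at least 1.74-fold higher at E15, and was not tested. The call of *Pkd2l1* was lost in 4 of the 6 fits that left out a library, and these ratios cover counting error only.

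The *Spag* genes share a name given for sperm antigens rather than a function. *Spag5* (ENSRNOG00000011777), or astrin, which holds spindle fibres to chromosomes, had 922, 997 and 1039.8 normalized counts at E15, against 45.3, 22.1 and 34.3 in adult plexus, enriched 29.2-fold (log2 fold change 4.87, standard error 0.22). *Spag1* (ENSRNOG00000010078), which is needed to preassemble dynein arms in the cytoplasm, had 823, 847 and 797 at E15, against 3959, 3785 and 3844 in adult plexus. The pools of *Spag1* were tight at each age, and it was 4.70-fold higher in the adult with TMM and 2.69-fold with total counts. *Spag4*, a nuclear envelope protein, was low (47.3 ± 8.32 and 14.0 ± 6.22, SD, n = 3) and enriched 3.35-fold at E15, and *Spag8* went from 1.60-fold in the adult to 1.09-fold at E15 with total counts.

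Of 15 other genes with tetratricopeptide repeats, a fold that binds other proteins and occurs in and outside cilia, 3 were called at E15 and 11 in the adult with TMM, and 4 and 7 with total counts. The shares over all genes tested were 34.7% and 29.3% with TMM, and 58.9% and 13.8% with total counts. *Ttc29* (ENSRNOG00000012342), an axonemal protein of sperm flagella, had 270.1, 216 and 235 normalized counts at E15, against 9.91, 18.2 and 12.4 in adult plexus, an enrichment of 17.6-fold. *Ttc6* had 5, 10 and 5 raw counts at E15 and 0 in the adult, at least 3.87-fold higher at E15. *Ttc34* was enriched 1.99-fold, with 86.8, 139 and 144 at E15, against 63.7, 76.6 and 45.3 in adult plexus, and lost its call in 3 of the 6 fits that left out a library.

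*Ttc7* (ENSRNOG00000014879), now *Ttc7a*, which anchors a lipid kinase at the plasma membrane, had 565, 669.9 and 675 normalized counts at E15, against 2919.7, 3405 and 3037 in adult plexus, 4.90-fold higher in the adult. *Ttc35* (ENSRNOG00000005123), now *Emc2*, a subunit of a complex that inserts proteins into the endoplasmic reticulum, had 2264, 1657 and 1805 at E15, against 5488, 4685 and 4588 in adult plexus, 2.58-fold higher in the adult. *Ttc9* (ENSRNOG00000007254) had 624, 589.8 and 552 at E15, against 3015, 2791 and 3012 in adult plexus, 4.99-fold higher in the adult. None of these pools overlapped, and the adult side held under total counts at 2.81-, 1.47- and 2.86-fold.

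*Ttc22*, *Ttc39a* and *Ttc39b* had the largest fitted differences of any member in favour of the adult, 7.42-, 7.22- and 6.69-fold, from low counts at E15. *Ttc39b*, known from lipid metabolism, had 105, 63.9 and 67.4 normalized counts at E15, against 545, 462 and 573 in adult plexus. *Ttc22* had 20.5, 36.2 and 53.3 at E15, against 256, 243 and 321 in adult plexus. *Ttc38* was 3.09-fold higher in the adult, and the adult side of all 4 held under total counts. *Ttc1*, *Ttc14*, *Ttc19* (an assembly factor of respiratory complex III) and *Ttc33* were between 1.55- and 1.93-fold higher in the adult with TMM and not called with total counts, where *Ttc14* and *Ttc19* turned to E15. The call of *Ttc14* was lost in 5 of the 6 fits that left out a library. Together, 10 members were called in the adult under both scalings, and 7 of them were tetratricopeptide genes, beside *Nek7*, *Pkd2* and *Spag1*.

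A difference above 4-fold was fitted for 12 members at E15 and 7 in the adult, compared with 17.0% and 8.14% of all genes tested. *Ttc6* is among the 12 only by a fit against 0 counts, since its lower bound was 3.87-fold. Because the naming rule left out genes without a difference, the members fell into a higher and a lower set with a gap between, and their median log2 fold change (0.56, compared with 0.14 for all genes tested) lies at the edge of that gap and went to -0.53 when stricter filters removed a few genes of low count.

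The first bases before the start of transcription are shown for 7 members that differed in opposite directions with TMM. They set the cell cycle genes beside the cilium genes. The 7 were picked by hand rather than by a rule. They include the only member with a full X-box match and both members with a FOXJ1 match, so they do not represent the members. Sequences are RefSeq's for the rat assembly GRCr8, 250 bases upstream of the start, read along the gene's strand. Capitals mark the matches found on either strand to the RFX X-box (the site of the RFX factors of ciliogenesis), its short site GTTGCCA, the FOXJ1 site GTAAACA, the E2F sites TTTGGCGC and TTTCCCGC, the cell cycle element CHR (TTTGAA) and the NFY box CCAAT.
Cep55: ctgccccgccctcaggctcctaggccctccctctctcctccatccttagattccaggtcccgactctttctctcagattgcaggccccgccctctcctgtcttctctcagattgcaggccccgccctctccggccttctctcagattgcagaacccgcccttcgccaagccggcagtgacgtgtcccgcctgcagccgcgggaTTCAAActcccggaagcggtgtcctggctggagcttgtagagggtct
Spag5: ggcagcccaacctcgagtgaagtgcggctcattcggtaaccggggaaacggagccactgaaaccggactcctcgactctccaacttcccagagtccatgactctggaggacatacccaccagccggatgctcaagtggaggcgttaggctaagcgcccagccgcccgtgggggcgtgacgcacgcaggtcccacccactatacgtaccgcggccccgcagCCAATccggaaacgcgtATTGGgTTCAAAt
Nek2: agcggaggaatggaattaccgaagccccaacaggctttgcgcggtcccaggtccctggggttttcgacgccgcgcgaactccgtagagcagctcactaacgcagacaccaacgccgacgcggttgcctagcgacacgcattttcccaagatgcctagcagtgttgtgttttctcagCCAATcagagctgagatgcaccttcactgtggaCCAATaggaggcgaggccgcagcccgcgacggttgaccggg
Hydin: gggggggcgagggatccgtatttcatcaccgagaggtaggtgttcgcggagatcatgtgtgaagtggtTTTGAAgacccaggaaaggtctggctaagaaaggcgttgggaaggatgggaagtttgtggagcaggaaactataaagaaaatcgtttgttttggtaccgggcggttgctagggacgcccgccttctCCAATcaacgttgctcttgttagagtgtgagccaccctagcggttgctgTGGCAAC
Tekt3: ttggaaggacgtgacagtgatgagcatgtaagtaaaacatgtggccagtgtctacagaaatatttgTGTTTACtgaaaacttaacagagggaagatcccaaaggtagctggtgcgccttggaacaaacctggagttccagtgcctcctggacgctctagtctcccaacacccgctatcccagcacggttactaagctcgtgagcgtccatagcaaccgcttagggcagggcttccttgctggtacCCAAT
Ahi1: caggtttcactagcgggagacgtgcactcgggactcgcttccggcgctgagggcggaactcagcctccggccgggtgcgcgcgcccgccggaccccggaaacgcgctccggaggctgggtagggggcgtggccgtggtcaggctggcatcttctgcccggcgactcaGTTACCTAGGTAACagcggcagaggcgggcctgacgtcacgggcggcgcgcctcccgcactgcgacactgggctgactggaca
Nek7: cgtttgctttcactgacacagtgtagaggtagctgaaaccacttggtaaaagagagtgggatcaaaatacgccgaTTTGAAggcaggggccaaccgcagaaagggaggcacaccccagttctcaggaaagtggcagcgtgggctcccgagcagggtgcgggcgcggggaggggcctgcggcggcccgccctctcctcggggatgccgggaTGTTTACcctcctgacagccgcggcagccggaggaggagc

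The stretch of *Cep55* lies at chr1:245245113-245245362, plus strand, that of *Spag5* at chr10:63696586-63696835, plus strand, and that of *Nek2* at chr13:105936559-105936808, plus strand. *Hydin* is at chr19:55146216-55146465, plus strand, *Tekt3* at chr10:48228609-48228858, plus strand, *Ahi1* at chr1:17581781-17582030, plus strand, and *Nek7* at chr13:52700824-52701073, minus strand.

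*Cep55* and *Spag5*, both enriched at E15, hold a CHR match that begins at base -47 and -7 before the start, and *Spag5* holds NFY boxes at -30 and -13. *Nek2* holds NFY boxes at -74 and -41 and no CHR. A CHR match also stands farther from the start in *Hydin* (at -182) and in *Nek7* (at -175), which was higher in the adult, so that the element is not particular to the cell cycle genes shown. *Ahi1*, higher in the adult with TMM and overlapping between the ages with total counts, was the only member with a match to the full X-box, at -83. Short RFX sites stood in *Hydin* (at -7) and *Spag4*, and FOXJ1 matches in *Tekt3* (at -184) and *Nek7* (at -40), so that a FOXJ1 match stood before 1 member of each age.

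Over the 55 members with a sequence in the reference (65 windows that do not overlap), these shares were close to those of all 29626 windows. A CHR stood in 16.9% of member windows and 16.1% of all windows, an NFY box in 40% and 34.0%, the short RFX site in 3.08% and 3.66% and the FOXJ1 site in 3.08% and 3.24%. The X-box was in 1.54% and 0.351%, which is a single member window. The E2F site TTTCCCGC was in 1.54% and 0.827%, also a single member window (*Alms1*, at -71), and TTTGGCGC was in 0 member windows. A CHR stood in 8 of 38 windows of members called at E15 and 2 of 25 of those called in the adult. An NFY box stood in 18 and 7 of them. These differences by age were not tested. A match is a run of letters and not a measured site.

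Further genes of cilia and centrosomes were taken from 7 lists written by function, and 90 of them could be named. As with the members, a name exists only for genes the authors had called on these pools, so the counts are no independent evidence. Together 62 were called at E15 and 26 in the adult with TMM, and 63 and 7 with total counts. Over all genes tested 34.7% and 29.3% were called with TMM, and 58.9% and 13.8% with total counts, and nothing is read from the counts beside these shares.

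From a list of factors written around ciliogenesis, 4 of 15 could be named. The list is not confined to factors that direct ciliogenesis, since *Gmnn* and *Rfx5* are in it. *Rfx1* (ENSRNOG00000006049) had 566, 1099.6 and 1096 normalized counts at E15, against 357, 467 and 316 in adult plexus, and *Rfx3* (ENSRNOG00000014486), whose loss in mice causes hydrocephalus, had 1289, 1546 and 1392 at E15, against 738, 831 and 1092 in adult plexus. They were enriched 2.42- and 1.59-fold at E15. *Gmnn*, which restrains DNA replication and whose relatives drive multiciliated cells, was enriched 11.1-fold, and *Rfx5*, a factor of MHC class II genes, was 1.71-fold higher in the adult with TMM and level with total counts (log2 fold change 0.04). *Foxj1* was not analysed here.

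Of 10 genes in a list written around the assembly and docking of dynein arms, 9 were called at E15. Their median log2 fold change was 0.83. The list is not confined to that task, since *Drc3* and *Dnajb13*, the latter called in the adult with TMM, are also in it. *Zmynd10* had 3720.1, 5008 and 4602 normalized counts at E15, against 2767, 2511 and 2577 in adult plexus (1.70-fold), and *Dnaaf5* was 1.74-fold higher. *Ruvbl2*, a chaperone of many large complexes, was 4.91-fold higher at E15. *Spag1*, of the members, works in the same assembly and was higher in the adult.

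Of 20 other axoneme genes, 10 were called at E15 and 9 in the adult with TMM, and 10 and 1 with total counts. *Dnai3* was 1.45-fold higher at E15, and *Dnai4* and *Kif27* were 1.50- and 1.59-fold higher in the adult with TMM and turned by total counts (log2 fold changes 0.22 and 0.14). Adaptors and motors of ciliary transport gave 8 and 9 of 17 with TMM and 9 and 4 with total counts. *Dynlrb2* and *Dynll1*, light chains of dynein motors, were enriched 2.57- and 1.66-fold at E15, and *Unc119b*, a carrier from which Arl3 releases lipid-modified proteins, went from 1.42-fold in the adult to 1.23-fold at E15 with total counts, as *Arl3* did. A list of 9 further genes was written around the transition zone but is not confined to it. *Glis2*, *Kif7*, *Anks6*, *Cep83* and *Sclt1* are also in it, so no age split of the transition zone itself is given. Of the 9 genes 5 were called at E15 and 4 in the adult with TMM, and 5 and 1 with total counts. Those called in the adult with TMM included *Cep83* (2.71-fold), whose protein anchors the basal body to the membrane, and the membrane proteins *Tmem237* (2.02-fold with TMM, log2 fold change -0.21 and not called with total counts) and *Tmem17* (1.71-fold with TMM, turned by total counts to a log2 fold change of 0.03).

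Of 11 genes in a list written around the duplication of centrioles and their bulk assembly in multiciliated cells, 10 were called at E15. Their median log2 fold change was 2.396. The list is not confined to these tasks, since *Haus1*, *Haus3* and *Haus8* are also in it. *Deup1* (ENSRNOG00000011172), the scaffold of the deuterosome on which multiciliated cells build centrioles, had 1449.6, 1344 and 1330.0 normalized counts at E15, against 5.66, 11.7 and 16.5 in adult plexus, an enrichment of 120.0-fold. Its close relative is *Cep63*, which serves the same step in dividing cells and was 1.43-fold higher in the adult with TMM and turned by total counts. *Plk4* (ENSRNOG00000011654), the kinase that starts a new centriole in either setting, had 2478, 1605 and 1892 at E15, against 122, 151 and 157 in adult plexus, 13.9-fold. *Haus3*, of the augmin complex, was not called, with 1371, 547 and 639.9 at E15, against 1127, 1273 and 1262 in adult plexus. Among the fits that left out a library, it was called in the adult only without E15 replicate 1. The exact test of edgeR with a common dispersion, run on all libraries, also called it in the adult. Of 19 other genes of the centrosome and spindle pole, 17 were called at E15, *Ckap5* (1.86-fold) and *Cep131* (2.34-fold) among them, and *Tacc2* was 2.36-fold higher in the adult with TMM and 1.35-fold with total counts.

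**Figure D3:**
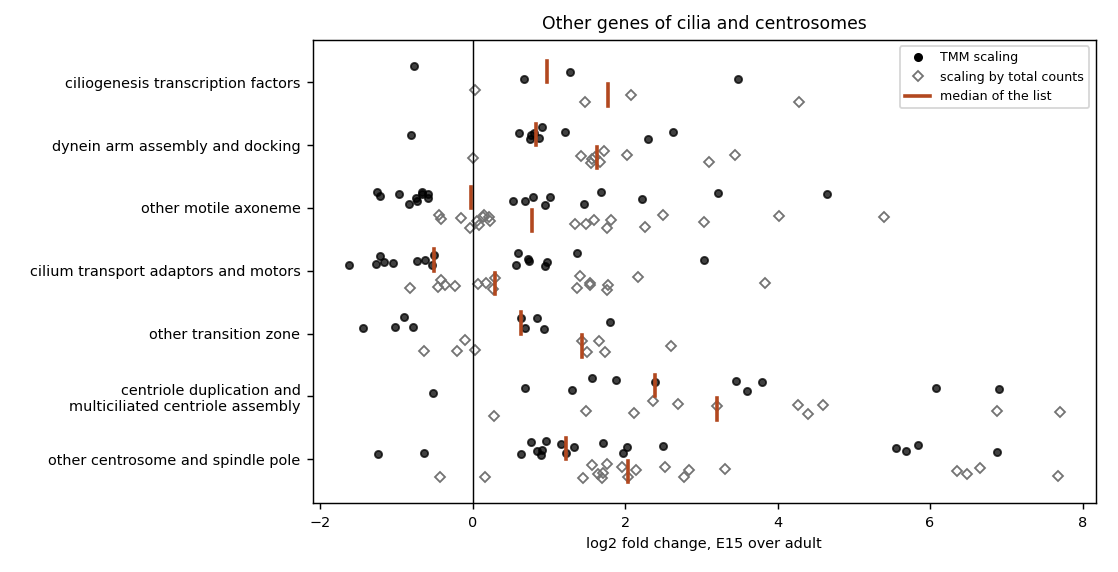
Log2 fold change (E15 over adult) of the 90 named genes in 7 lists of cilium and centrosome genes, with TMM scaling (filled circles) and with scaling by total counts (open diamonds), and the median of each list as a bar. The list of centriole duplication has the highest median under both scalings, and the medians for other motile axoneme genes and for transport adaptors and motors lie below zero with TMM and above it with total counts.

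Markers of dividing cells were, like most of the centrosome genes, higher at E15. All 12 proliferation markers that could be named were called at E15, their summed normalized counts ranged from 19789 to 23682 in E15 libraries but from 2465 to 2702 in adult libraries, and *Ccnb2* was at 0 in the adult. All 8 markers of neural progenitors were also called at E15. None was at 0 over the adult pools together, but *Emx1* (0, 0 and 1 raw counts), *Neurog2* (0, 0 and 2) and *Hes5* (0, 4 and 0) were close to it there. Both marker lists hold names only for genes the authors had called on these pools, so these counts are no independent evidence. The share called at E15 over all genes tested was 34.7% with TMM and 58.9% with total counts. How far dividing cells or progenitors account for *Cep55*, *Nek2*, *Spag5*, *Plk4* or the other centrosome genes was not tested.

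Markers of ependyma, the ciliated lining of the ventricles next to the plexus, did not move one way. Of 6 that could be named, 3 were called at each age. Their sum was 2967 to 4211 normalized counts at E15 and 1219 to 2123 in the adult, and *Hydin* and *Tppp3*, which bundles microtubules, made up most of it at E15. *Tmem212* was at 0 in all E15 pools, and *S100b* had 0.819, 5.39 and 7.06 at E15, against 401, 1165 and 225 in adult plexus. The part of ependymal cells in the axoneme genes was not tested.

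Among pools of the same age, E15 replicate 1 was the farthest from the other E15 pools for 46 of the 64 members tested (71.9%), as it was for 65.8% of all genes tested, higher in 24 and lower in 22. The members did not deviate in 1 direction there. *Rsph9* (log2 ratio -0.89), *Nphp4* (-0.69), *Nek8* (-0.67) and *Dnah10* (-0.65) were low in that pool, while *Ttc14* (0.85), *Cep55* (0.71), *Tubgcp5* (0.61), *Ift20* (0.56) and *Rpgrip1l* (0.52) were high. These genes were picked after their values were seen. Markers of developing neurons had a median log2 ratio of 1.31 in E15 replicate 1 and -1.75 in E15 replicate 2, and their part in the members' spread was not tested. Without E15 replicate 1, 31 members were called at E15 and 31 in the adult. In the adult the farthest pool was replicate 1, 2 or 3 for 20, 23 and 21 members. The 20 include *Cep72* and *Ttc6*, which had 0 counts in every adult pool and so no farthest pool.

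**Figure D4:**
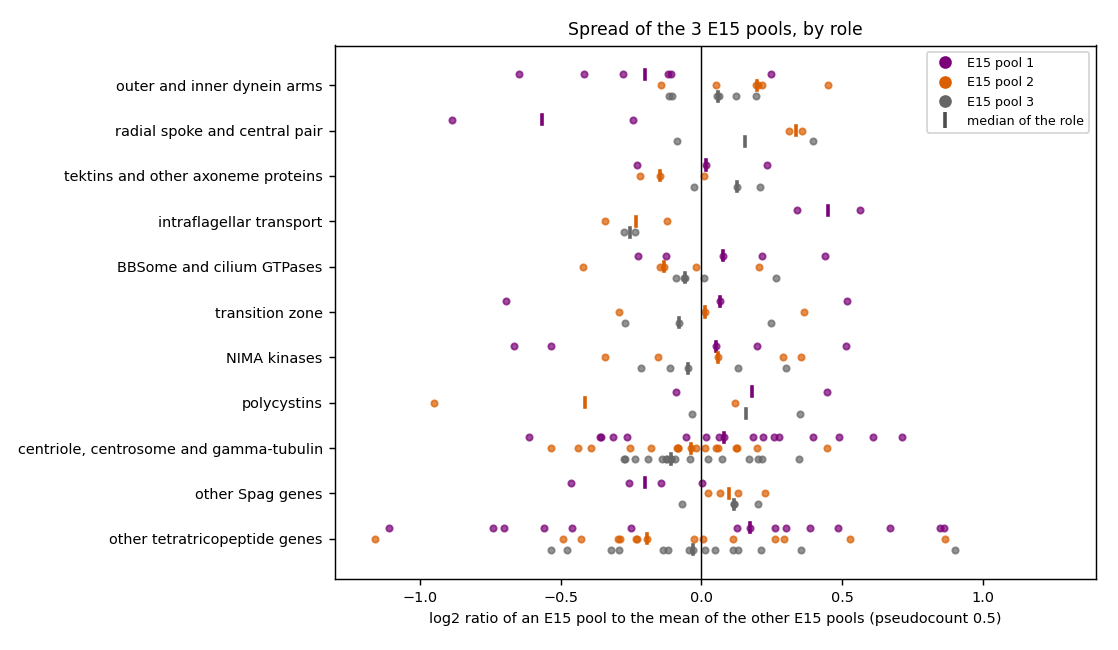
Log2 ratio of each E15 pool to the mean of the other E15 pools (pseudocount 0.5) for the 64 members tested, by role, with the median of each role as a bar. Points of E15 pool 1 are spread to both sides of zero, with dynein arms and radial spoke genes mostly below it and both intraflagellar transport genes above it.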

How the data were processed

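Lateral ventricular choroid plexuses were sequenced on the Illumina platform, with 3 libraries at each age. According to the methods, the authors trimmed the reads, mapped them to Ensembl's rat genome by Bowtie 0.12.7, discarded reads without a unique place, and counted them per gene with HTSeq 0.4.7p4. The deposited raw counts were used as they stand. The authors' table of called genes also holds a log2 fold change and a log2 concentration, and the p-value of their edgeR 2.4.0 exact test with its adjusted p-value; none of these deposited values was used, and the table served only to name genes.

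Genes with more than 10 counts in all were fitted with edgeR 4.0.16 (R 4.3.3; TMM, quasi-likelihood test, age as the only term, Benjamini-Hochberg adjustment at 0.05). Standard errors were derived from the fold change and the F statistic. Bounds used 3 counts over an age's pools as the floor, and log2 ratios between pools a pseudocount of 0.5. The test was checked on simulated counts. The p-values behind calls measure the spread between pools of 10 animals. Members and lists were chosen with earlier results of these data known. Genes were named in the text where they had the highest counts of their role or list, the largest differences, or 0 counts at an age; others were added to complete a group after their values were seen. Promoters came from RefSeq (GRCr8), with 55 of 65 members matched by symbol, and motifs were searched on both strands of the 250 bases upstream. Alternatives were other scalings, filters and tests (DESeq2 1.42.0, limma 3.58.1), a replicate block, and leaving out each library. The libraries gave 17875089 to 19204440 counts. Replicate numbers did not pair the pools.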

Additional observations from a re-analysis of the deposited data

How the results depend on the processing

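The number of members called at E15 stayed between 27 and 34 over all alternatives, whereas the number called in the adult rested on the scaling. It was 31 with TMM, 10 with total counts and 16 with total counts less those of the 10 most abundant genes, and for the pathway lists 26, 7 and 15. These scalings moved the median of all genes tested from 0.14 to 0.94 and 0.60 on the log2 scale, and changes are to be read relative to it. Scaling by total counts leaves out the TMM factors, which were 1.32 to 1.33 at E15 and 0.735 to 0.773 in the adult. This moved log2 fold changes towards E15 by a similar amount in genes away from 0 counts, as in *Arl3* (-0.55 to 0.26) and *Bbs1* (0.70 to 1.50). A log2 fold change turned where its adult difference with TMM was smaller than that move. Which scaling is closer to the change per cell was not tested. Among the members and the list genes named above, total counts turned the log2 fold changes of *Arl3* (0.26), *Bbs4* (0.24), *Bbs7* (0.26), *Nek11* (0.026), *Cep63* (0.29), *Tubgcp5* (0.22), *Spag8* (0.13), *Ttc14* (0.17), *Ttc19* (0.069), *Dnah5* (0.28), *Dnal1* (0.27), *Enkur* (0.24), *Rpgrip1l* (0.21), *Rfx5* (0.035), *Dnai4* (0.22), *Kif27* (0.14), *Unc119b* (0.30), *Tmem17* (0.030) and *Haus3* (0.28). Other genes of the lists turned as well, such as *Kif9* (0.22) and *Rab23* (0.27). The median log2 fold changes of the roles became, with total counts and then without the top 10 genes, 2.20 and 1.86 for dynein arms, 1.11 and 0.77 for spoke and central pair, 1.54 and 1.20 for tektins, -0.14 and -0.49 for intraflagellar transport, 0.26 and -0.083 for the BBSome (-0.42 with upper quartile factors), 0.21 and -0.13 for the transition zone, 0.026 and -0.32 for NIMA kinases, 1.86 and 1.52 for centrosome genes, 1.34 and 0.997 for *Spag* genes, -0.14 and -0.48 for tetratricopeptide genes, and 1.37 and 1.02 for all members. It was 1.74 for polycystins with total counts. With filterByExpr, and with a mean count above 100 at either age, fewer genes were tested, and the medians were -1.26 and -1.24 for polycystins, -1.38 and -1.36 for tetratricopeptide genes and -0.53 in both cases for all members. The second filter gave 0.69 for dynein arms and -0.67 for *Spag* genes.

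Leaving out a library gave 27 to 31 members called at E15 and 29 to 31 in the adult, and 58 to 62 and 25 to 28 in the lists. Medians then ranged from 1.01 to 1.70 for dynein arms and from 0.72 to 2.10 for polycystins. With the replicate block 30 members were called at E15 and 31 in the adult, and 61 and 26 in the lists, but same-numbered pools did not deviate together (correlations -0.02, -0.01 and -0.06), so that the numbers do not pair the pools. The planned count over a wider family of names was not run, because the reference table used here could not be joined to the gene identifiers. The depth limits *Pkd1l1*, *Pkd2l1*, *Ttc6* and *Ttc9b*.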
